A study of Mus musculus with 6 samples.

Results

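The genes described here are 8 members of the fibroblast growth factor (FGF) system in mouse embryonic fibroblasts: the ligand genes Fgf2, Fgf7, Fgf10, Fgf16, Fgf18 and Fgf21 and the receptor genes Fgfr1 and Fgfr2. They were taken by symbol, through the GENCODE M21 annotation, from a deposited table of 43346 genes, and all 8 had a row. The set was chosen by its erastin-against-DMSO levels, because Fgf21 and Fgf16 were near the detection limit in control libraries and well above it after erastin. The erastin-against-DMSO values of the 8 genes are therefore given as a description with no p-value. Whether one of the 8 passed a threshold is likewise a description. The libraries came from primary fibroblasts of C57BL/6 embryos at passage 9, 3 after 24 h with 3 µM erastin and 3 after the same time with the solvent DMSO. Erastin inhibits the cystine/glutamate antiporter and is used to induce ferroptosis, an iron-dependent form of cell death. Cells of both groups grew in medium with 10% fetal bovine serum, which itself holds growth factors, and with 2-mercaptoethanol, printed in the labels as 55 mM. The labels do not say whether the 3 libraries of a group came from separate embryos or cultures, so p-values measure only the spread between these libraries.

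Most FGFs are secreted proteins that bind receptor tyrosine kinases together with heparan sulfate chains on the cell surface. The bound receptor docks the adaptor FRS2 and drives the RAS-ERK kinase relay, whose output includes transcription factors of the ETS, AP-1 and EGR families and feedback inhibitors of the Sprouty and Spred families. FGF21 belongs to the endocrine branch: it binds heparan sulfate weakly and needs the co-receptor beta-Klotho, encoded by Klb, beside an FGF receptor. Fgf21 is best known as a liver and fat hormone of fasting and is an established target of the stress transcription factor ATF4, while FGF7 and FGF10 are made by mesenchymal cells and act on the epithelial form of FGFR2.

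Fgf21 (ENSMUSG00000030827.4) lies at chr7:45613886-45615490 on the minus strand of GRCm38 and has 1 annotated transcript, of 951 bases. Fgf16 (ENSMUSG00000031230.3) lies at chrX:105764279-105774939 on the plus strand and also has 1 transcript, of 1645 bases. RefSeq promoter windows (GRCm38.p6, from 250 bases before to 50 bases after the start site) were matched for 6 of the 8 genes, all but Fgf16 and Fgfr1. They were searched on both strands for 6 motifs: the C/EBP-ATF response element core TGATGNAA, which ATF4 can bind, the AP-1 site TGANTCA, the antioxidant response element core TGACNNNGC, the cAMP response element TGACGTCA, the E-box CACGTG and the TATA box TATAAA. The 250 bases before the start are shown for Fgf21, which held 3 of the motifs, and for Fgf7, the ligand with the highest level per length, which held none; matches are in capitals. The Fgf21 stretch is chr7:45615491-45615740 on the minus strand and the Fgf7 stretch is chr2:126034408-126034657 on the plus strand, both printed 5′ to 3′ along the gene.
Fgf21: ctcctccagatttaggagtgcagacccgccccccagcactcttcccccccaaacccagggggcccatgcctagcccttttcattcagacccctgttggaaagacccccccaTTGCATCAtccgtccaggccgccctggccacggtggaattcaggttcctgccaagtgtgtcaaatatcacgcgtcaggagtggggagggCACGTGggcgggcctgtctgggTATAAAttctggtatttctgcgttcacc
Fgf7: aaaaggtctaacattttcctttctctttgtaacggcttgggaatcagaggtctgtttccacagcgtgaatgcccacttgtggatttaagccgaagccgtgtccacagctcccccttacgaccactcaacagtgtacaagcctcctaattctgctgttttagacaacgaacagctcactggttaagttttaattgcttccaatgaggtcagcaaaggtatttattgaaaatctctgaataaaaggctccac

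The C/EBP-ATF core in the Fgf21 window began 139 bases before the start site and lay on the strand opposite to the gene; the gene strand, printed above, has TTGCATCA there. Of 32851 windows of this length, 3.97% held that core. The same Fgf21 window held an E-box 50 bases and a TATA box 28 bases before the start, motifs found in 7.15% and 13.6% of all windows. Fgf2 held the antioxidant response element core at 144 and at 6 bases before the start (12.4% of windows), and Fgfr2 held an E-box 28 bases after it. Fgf7, Fgf10 and Fgf18 held none of the 6 motifs, and neither the AP-1 site (7.81% of windows) nor the cAMP response element (1.79%) was present in any of the 6 windows. These are matches of letters, not measured binding.

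**Figure D1:**
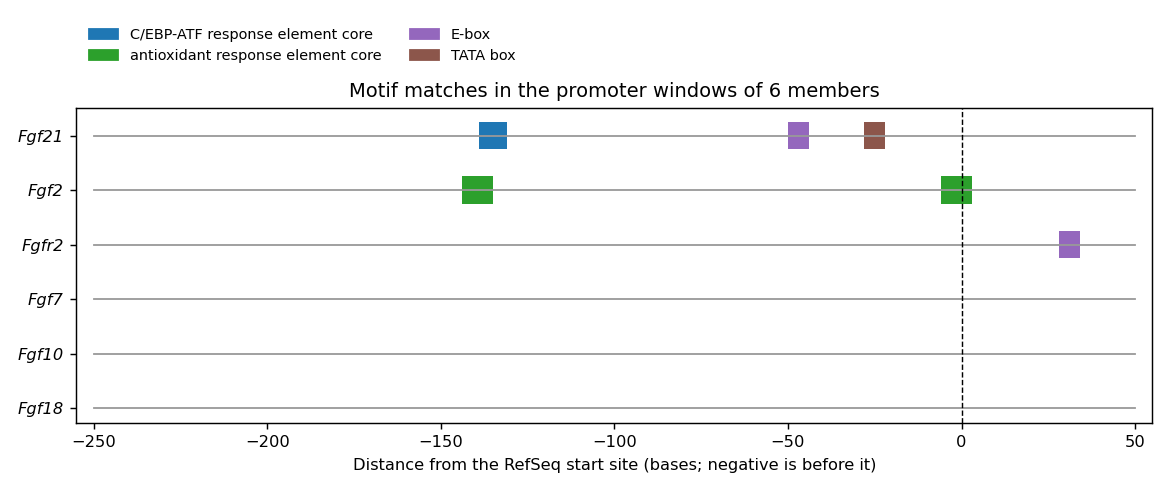
Motif matches (coloured blocks) in the 300-base promoter windows of 6 members, plotted by distance in bases from the RefSeq start site (dashed line). Fgf21 alone of the 6 holds the C/EBP-ATF core and the TATA box, and 3 of the 6 windows are empty.

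Libraries held 13333911 to 20509970 counted reads, and 3 reads were worth 0.14 to 0.234 CPM (counts scaled to a common library size with TMM factors) depending on the library. As labelled, the cells had high levels of fibroblast markers: Col1a1, Col1a2, Vim and the other 7 genes of the list summed to 28900 to 30100 CPM in DMSO libraries. They summed to 17000 to 19000 CPM with erastin, 9 of the 10 markers being lower and 1 not passing. Markers of other cell types were sparse. The 8 hepatocyte markers summed to at most 0.856 CPM in any library, with Afp, Serpina1a and Cyp2e1 at 0 reads in all 6, and the 6 adipocyte markers to at most 6.65 CPM, with Adipoq and Cidec at 0. The 8 striated muscle markers summed to at most 4.28 CPM, the 6 epithelial markers to at most 3.25 CPM and the 6 macrophage and blood markers to at most 16.9 CPM, with no passing gene in these lists. The 4 endothelial markers summed to between 4.66 and 7.1 CPM in DMSO, and with erastin to between 13.2 and 16.4 CPM, through Kdr and Tek, which passed as higher, while Pecam1 and Cdh5 were too low to be tested. The part of these shifts in the values below was not tested. In such bulk RNA, fewer cells of a type and less RNA per cell cannot be told apart.

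Fgf21 was detected in DMSO libraries by 2, 4 and 3 reads, or 0.151, 0.222 and 0.234 CPM, and in erastin libraries by 104, 123 and 124 reads, or 4.84, 7.36 and 6.43 CPM. The 3 erastin libraries stood far above the 3 DMSO libraries, which lay at the level of 2 to 4 reads. The group means were 0.202 ± 0.0446 CPM in DMSO and 6.21 ± 1.27 CPM with erastin (SD, n = 3 each), a fitted log2 fold change of 4.88 (SE 0.53). Because only 9 DMSO reads underlie it, the ratio of the summed reads is better read with its counting interval: it was 29.9, with an exact 95% interval of 15.6 to 66.0 that covers counting error only.

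Fgf16, a ligand of the FGF9 subfamily known from heart and brown fat, had 1, 0 and 0 reads in the DMSO libraries and 46, 49 and 48 reads in the erastin libraries. In CPM these were 0.0756, 0 and 0 against 2.14, 2.93 and 2.49, so the groups were apart and DMSO was below the level of 3 reads in each library. The ratio of the summed reads, 143 against 1, was 110 after scaling, with an exact 95% counting interval of 19.4 to 4370. The fitted log2 fold change of 6.38 (SE 1.5) rested on that single read and ran from 5.79 without DMSO replicate 2 to 8.48 without DMSO replicate 1, with 6.00 without DMSO replicate 3. Within each erastin library Fgf21 had 2.26, 2.51 and 2.58 reads for each read of Fgf16 (mean 2.45 ± 0.169, SD, n = 3), a ratio that no scaling enters.

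Fgf7 (ENSMUSG00000027208.10, chr2:126034658-126091185, plus strand), the keratinocyte growth factor, was the most abundant of the 6 ligands per length. Its levels were 57.2, 61.7 and 67.4 CPM in DMSO and 73.9, 68.6 and 78.0 CPM in erastin libraries, with all 3 erastin values above the DMSO values by a small margin. The log2 fold change was 0.24 (SE 0.09). Fgf7 was called at an adjusted p-value under 0.05 in this fit but in only 4 of the 16 alternatives; the call was lost without DMSO replicate 1, DMSO replicate 2, erastin replicate 1 or erastin replicate 3, and the log2 fold change lay between 0.19 and 0.30 over all 6 fits that left out a library. Fgf10 (ENSMUSG00000021732.10, chr13:118669791-118792115, plus strand), a close relative of Fgf7, was at 11.0, 8.37 and 10.0 CPM in DMSO and 7.82, 4.73 and 7.93 CPM in erastin libraries, lower in every erastin library but not past the threshold (log2 fold change -0.51, SE 0.24). Counted within a library, Fgf7 had 6.42 ± 1.12 reads for each read of Fgf10 in DMSO and 11.3 ± 2.82 with erastin (SD, n = 3 each), and the lowest erastin ratio, 9.45, was above the highest DMSO ratio, 7.37.

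Fgf18 (ENSMUSG00000057967.8, chr11:33117430-33147400, minus strand), another ligand of mesenchymal tissues, was measured at 4.68, 6.10 and 4.51 CPM in DMSO and 1.82, 2.81 and 3.89 CPM in erastin libraries. The erastin libraries were all lower, with erastin replicate 3 nearest to DMSO, and the log2 fold change of -0.85 (SE 0.35) did not pass. It passed without erastin replicate 3, at -1.15. Fgf2 (ENSMUSG00000037225.9, chr3:37348346-37410108, plus strand), basic FGF, was at 16.2, 11.2 and 16.5 CPM in DMSO and 11.6, 11.4 and 11.0 CPM in erastin libraries. DMSO replicate 2 lay among the erastin values, so the groups overlapped, and the log2 fold change of -0.36 (SE 0.19) did not pass; without DMSO replicate 2 it was -0.52 and passed. Nudt6, on the opposite strand, shares 640 bases of exon with Fgf2 (9.4% of the Fgf2 exon bases) and had 18 to 49 reads in a library. Fgf10 shares 123 bases with the antisense gene Gm16263, which had at most 9. Whether the counting used strand is not given in the sources used here, so reads of these overlapping stretches cannot be assigned.

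Fgfr1 (ENSMUSG00000031565.13, chr8:25513654-25575718, plus strand), a receptor for many FGFs that is widely expressed in mesenchymal cells, had 4170, 6203 and 4337 reads in DMSO and 12021, 9881 and 9258 reads in erastin libraries. In CPM it stood at 315, 344 and 338 in DMSO and 560, 592 and 480 with erastin, with every erastin library above every DMSO library. The means were 332 ± 15.1 and 544 ± 57.4 CPM (SD, n = 3 each), 1.64-fold apart (log2 fold change 0.71, SE 0.08). Leaving out any 1 library gave log2 fold changes of 0.65 to 0.80. Fgfr2 (ENSMUSG00000030849.13, minus strand of chromosome 7) was at 60.9, 62.6 and 69.1 CPM in DMSO and 71.2, 66.8 and 73.5 CPM in erastin libraries; the groups overlapped, and the log2 fold change of 0.14 (SE 0.09) did not pass. Fgfr2 has 27 annotated transcripts and Fgfr1 has 19, and counts per gene do not separate the forms with different ligand preference. Exons of Ctbp2 on the same strand share 314 bases with the annotated exons of Fgfr2 (3.0% of the Fgfr2 exon bases). Ctbp2 had 880, 1197 and 975 reads in DMSO and 1420, 1119 and 1469 reads in erastin libraries. The part of the shared stretch in the Fgfr2 counts, and in the ratios to Fgfr2 below, was not tested.

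Ratios within a library showed the receptors apart without any scaling. Fgfr1 had 5.17, 5.49 and 4.88 reads for each Fgfr2 read in DMSO and 7.86, 8.85 and 6.53 in erastin libraries, with no overlap. Fgf7 and Fgfr2 had nearly equal read numbers in every library, with 0.967 ± 0.0244 Fgf7 reads for each Fgfr2 read in DMSO and 1.04 ± 0.0181 with erastin (SD, n = 3 each). Fgf2 had 0.0443 ± 0.0102 reads for each Fgfr1 read in DMSO and 0.021 ± 0.0019 with erastin, again without overlap.

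**Figure D2:**
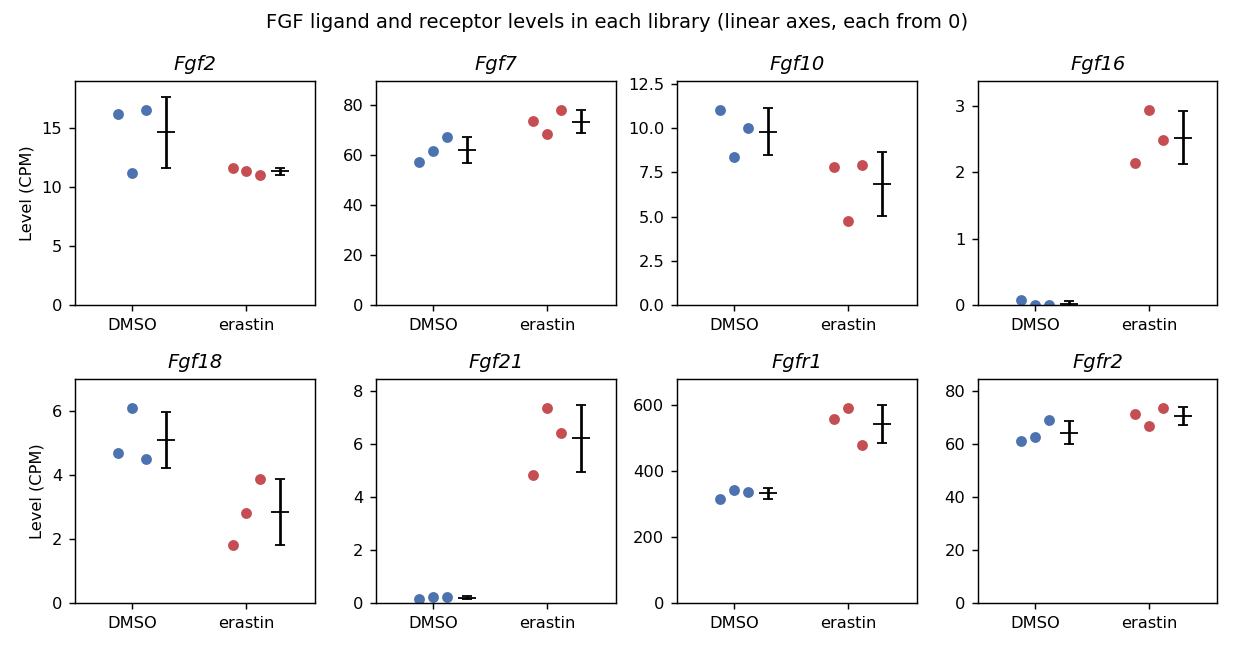
Levels of the 8 genes in CPM on linear axes that start at 0, with 1 point per library (blue DMSO, red erastin) and the mean ± SD of the 3 libraries in black. Fgf21 and Fgf16 sit on the baseline in DMSO, Fgfr1 is separated at a high level, and the groups of Fgf2 and of Fgfr2 overlap.

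By the call rule, an adjusted p-value under 0.05 in edgeR's quasi-likelihood test over 14000 genes, 4 of the 8 genes were higher with erastin (Fgf21, Fgf16, Fgfr1 and Fgf7) and 0 were lower. At an unadjusted p-value under 0.05 a further gene, Fgf18, was lower. DESeq2 called 3 higher, without Fgf7, and 0 lower. Over all genes 43.1% were called, 21.6% as higher and 21.5% as lower. The groups did not overlap in 6 of the 8 genes, 4 with erastin above and 2, Fgf10 and Fgf18, with erastin below, where 52.5% of all genes tested did not overlap, 26.7% with erastin above and 25.8% with erastin below. The median log2 fold change of the 8 was 0.19, and that of all genes tested was -0.0014. Since this contrast chose the genes, nothing is read from these counts.

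Per kilobase of the longest transcript, the order in DMSO was Fgfr1 (65.9 ± 3.00 CPM per kb, SD, n = 3), Fgf7 (23.2 ± 1.91), Fgfr2 (14.5 ± 0.98), Fgf18 (4.70 ± 0.80), Fgf2 (2.45 ± 0.497), Fgf10 (2.39 ± 0.327), Fgf21 (0.213 ± 0.0469) and Fgf16 (0.0153 ± 0.0265). Only Fgf2 and Fgf10 overlapped as neighbours. With erastin the first 3 places were the same, at 108 ± 11.4, 27.5 ± 1.77 and 15.9 ± 0.766 CPM per kb. Fgf21 was then in the fourth place with 6.53 ± 1.34 CPM per kb, above Fgf18 (2.61 ± 0.955), Fgf2 (1.90 ± 0.0498), Fgf10 (1.66 ± 0.442) and Fgf16 (1.53 ± 0.241), whose replicate ranges overlapped from each to the next. Per kilobase of summed exons the level of Fgfr2 with erastin was 6.83 ± 0.328 and overlapped that of Fgf21, because the many Fgfr2 transcripts add up to a longer exon sum.

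Fgf21 and Fgf16 together thus took a measurable part of the ligand transcripts. As a share of the 6 ligands' summed CPM per kb, Fgf21 was 0.507%, 0.710% and 0.705% in DMSO and 12.9%, 19.0% and 15.1% in erastin libraries. Fgf16 was at most 0.147% in DMSO and 3.29% to 4.37% with erastin. Fgf7 stayed the largest component, with 62.9% to 69.9% in erastin and 68.4% to 72.4% in DMSO libraries, while Fgf18 was at 11.9% to 17.1% in DMSO and 4.23% to 7.99% with erastin. A share can be lower because another component is higher, so these values describe the mixture, not each gene.

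**Figure D3:**
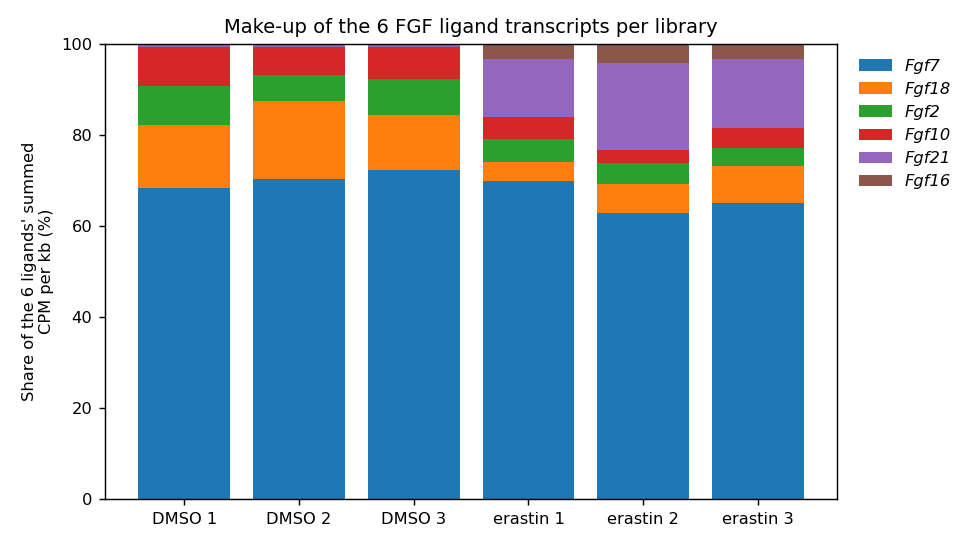
Share of each of the 6 ligand genes in their summed CPM per kb of longest transcript, in percent, 1 bar per library. Fgf7 makes up the largest part of all 6 bars, and Fgf21, at or under 0.710% in DMSO, takes 12.9% to 19.0% in the erastin bars.

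The rest of the family was not called. Of 16 other Fgf genes, 4 had enough reads to be tested (Fgf1, Fgf5, Fgf9 and Fgf13) and 0 passed, also at an unadjusted p-value under 0.05 and in DESeq2. Their mean levels were 0.675 to 2.83 CPM in either group, and their log2 fold changes ran from -0.50 to -0.05, with edgeR adjusted p-values of 0.521 to 0.924. The other 12 had at most 18 reads in any library. Of the other receptors and co-receptors, Fgfr3 (2.45 ± 0.971 CPM in DMSO and 2.16 ± 0.558 with erastin, SD, n = 3; edgeR adjusted p = 0.78) and Fgfrl1, which encodes a receptor without a kinase domain (30.2 ± 2.31 and 27.8 ± 2.93 CPM; edgeR adjusted p = 0.46), were tested and did not pass. Fgfr4 had at most 1 read in a library.

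Klb, which encodes the beta-Klotho co-receptor that FGF21 needs, had 0 reads in all 6 libraries. A count of 0 allows a level of up to 0.14 to 0.234 CPM depending on the library. Its relative Kl, the co-receptor of FGF23, had between 2 and 9 reads in a library, and Lctl had at most 2. The co-receptor transcript was thus not detected at this depth in libraries where Fgf21 and Fgfr1 were both measured.

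Of 68 tested pathway genes outside the 8, 22 were higher and 22 lower with erastin and 24 did not pass. This 64.7% stands beside the 43.1% called over all genes, with no test of the difference. The lists were chosen with earlier results of these data known. An excess over all genes can therefore not be read from this share or from those of the single lists below. Of 19 tested genes that make, trim or carry heparan sulfate or encode an FGF-binding protein, 13 were lower and 2 higher, with a median log2 fold change of -0.33 (-0.0014 over all genes). The share called was 78.9%, beside 43.1% over all genes, of which 21.5% were called as lower, with no test of the difference. The FGF-binding protein gene among them, Fgfbp3, did not pass (0.71, edgeR adjusted p = 0.0522). The syndecan gene Sdc1 had a mean of 282 ± 11.4 CPM in DMSO and fell to 134 ± 11.9 CPM with erastin (SD, n = 3), a log2 change of -1.08 with a standard error of 0.08 (adjusted p = 1.03e-07, edgeR). Sdc3 fell by 0.61 in log2 units, and the glypican gene Gpc4 by 0.58, with adjusted p-values from edgeR of 2.81e-05 and 3.55e-05. The 2 that rose were Ndst1, encoding an enzyme that sulfates the chains (0.44, edgeR adjusted p = 0.000443), and Gpc2 (0.89, edgeR adjusted p = 0.0126), a gene of few reads. Gpc2 no longer passed after thinning to the smallest library with the replicate block (0.79, edgeR adjusted p = 0.0505), which left 1 gene of the list higher. The number higher was also 1 at a threshold of 0.01, and it was 3 with total-count scaling or without erastin replicate 2. The fibroblast markers above were also lower in these libraries, and their part in this was not tested.

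In the relay from receptor to ERK, 6 of 19 genes were higher, 4 lower and 9 did not pass, with a median of 0.01. The 52.6% called stands near the 43.1% called over all genes (21.6% as higher and 21.5% as lower). Nothing about the relay is read from this count. Frs2, the docking adaptor of FGF receptors, had a mean of 83.3 ± 1.16 CPM in DMSO and rose to 108 ± 4.64 CPM with erastin (SD, n = 3; adjusted p = 0.00148, edgeR). Sos1, a RAS activator, rose by 0.50 and Map2k1, which encodes MEK1, by 0.57 in log2 units, with adjusted p-values from edgeR of 0.00149 and 0.00012. Mapk3, which encodes ERK1, fell by 0.63, Hras by 0.51 and the adaptor gene Shc1 by 0.27 (edgeR adjusted p = 0.000174, 0.000326 and 0.00688). Transcript levels do not give the activity of these kinases.

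Feedback inhibitors moved in opposite directions within 1 family. Spry1 was at 116, 124 and 129 CPM in DMSO and fell to 27.9, 23.9 and 37.3 CPM with erastin, a log2 change of -2.05 with a standard error of 0.13 (adjusted p = 2.17e-08, edgeR). Spry2 was at 57.0, 54.5 and 66.6 CPM in DMSO and rose to 136, 147 and 123 CPM, a log2 change of 1.19 with a standard error of 0.10 (adjusted p = 2.43e-07, edgeR). Spry4 had means of 22.8 ± 4.05 CPM in DMSO and 42.3 ± 9.2 CPM with erastin (SD, n = 3; adjusted p = 0.000513, edgeR). Both directions held under every scaling run. In the list of feedback genes, 10 were tested, of which 5 were higher and 3 lower. The 80% called stands beside 43.1% over all genes, with no test of the difference. The list also held Flrt2 (higher, 0.32, edgeR adjusted p = 0.00332) and Flrt3 (not passed), which are not established inhibitors. Dusp6, a phosphatase of ERK, was among the higher ones (0.68, edgeR adjusted p = 0.00148), and Spred1 (-0.39, edgeR adjusted p = 0.0043) and Il17rd (-0.42, edgeR adjusted p = 0.0233) among the lower ones. The call of Il17rd ended with scaling by total count (-0.35, adjusted p = 0.0507) and without DMSO replicate 1 (-0.34, 0.0989), erastin replicate 1 (-0.32, 0.124) or erastin replicate 2 (-0.37, 0.0803).

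Of 7 transcription factor genes that respond to ERK signalling, 5 were higher, 0 lower and 2 did not pass (0 lower also at an unadjusted p-value under 0.05 and in DESeq2). The 71.4% called as higher stands beside 21.6% called as higher over all genes, with no test of the difference. Fosl1, an AP-1 subunit, averaged 9.66 ± 1.61 CPM in DMSO and 80.6 ± 16.7 CPM with erastin (SD, n = 3), a log2 rise of 3.07 with a standard error of 0.16 (adjusted p = 3.96e-09, edgeR). Egr1 rose by 1.88 in log2 units, to 105 ± 35 CPM, and Myc by 1.49, to 131 ± 15 CPM (SD, n = 3), with adjusted p-values from edgeR of 2.51e-06 and 4.24e-08. The 2 that did not pass were the ETS genes Etv1 (-0.89, edgeR adjusted p = 0.149) and Etv4 (-0.30, edgeR adjusted p = 0.433). Etv1, a gene of few reads, was lower in every erastin library than in every DMSO library. Etv5, also an ETS gene, was among the higher ones (0.92, edgeR adjusted p = 3.71e-05). The genes of this list also respond to other inputs to ERK and to stress.

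Among 10 genes known to regulate Fgf21 transcription, 7 could be tested, of which 4 rose and 2 fell. The 85.7% called stands beside 43.1% over all genes, with no test of the difference. Atf4 had a mean of 217 ± 17 CPM in DMSO and rose to 414 ± 9.52 CPM with erastin (SD, n = 3). Its log2 change was 0.93 (edgeR adjusted p = 1.66e-07). The product of Atf4 can bind the C/EBP-ATF core shown above, but neither binding nor ATF4 protein was measured. A part of Atf4, or of any other gene of this list, in the Fgf21 levels was not tested. Nfe2l2, the gene of NRF2, rose by 0.95 and Pparg by 0.94 in log2 units, with adjusted p-values from edgeR of 1.96e-07 and 0.0035. Rxra, the partner of PPAR receptors, fell by 0.80 and the unfolded-protein-response factor gene Xbp1 by 0.50 (edgeR adjusted p = 1.83e-05 and 0.000174). Ppara, the fasting regulator of Fgf21 in liver, had 0, 17 and 6 reads in DMSO and 22, 15 and 33 with erastin and did not pass (edgeR adjusted p = 0.212), and Ppargc1a, Mlxipl and Creb3l3 were too low to be tested.

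**Figure D4:**
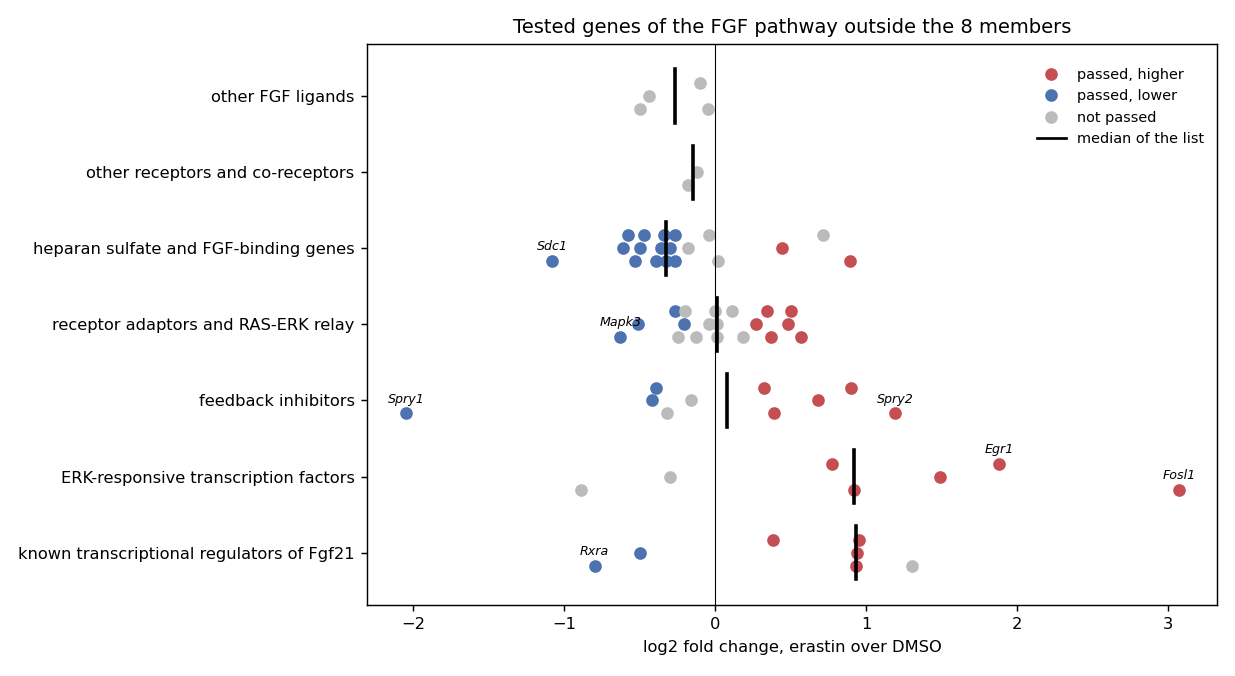
Log2 fold change (erastin over DMSO) of each tested pathway gene outside the 8, by list; red and blue points passed as higher and lower, grey did not pass, and black bars are list medians. Heparan sulfate genes lie mostly left of 0, and Spry1 and Spry2 lie on opposite sides. Of the ERK-responsive factors, 5 of 7 lie to the right, and Etv1 and Etv4, in grey, lie to the left.

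Likeness of pattern was measured as the root mean square difference of log2 CPM, centred on each gene's mean, over the 6 libraries. The 3 genes nearest to Fgf21 were 1700012B09Rik (0.276), Hmox1 (0.340) and Dusp10 (0.343), and those nearest to Fgf16 were Gdf15 (0.126), 1700012B09Rik (0.321) and Hmox1 (0.380). The nearest to Fgfr1 were Utp4, Bin1 and Pdpn, with differences of 0.034 to 0.048, and to Fgfr2 Mier1, Smg5 and Ppp4r1, with 0.021 to 0.028. For Fgf21 and Fgf16 this measure depends on the prior count of 2 that was added before the log, since their DMSO reads were so few. The fitted log2 fold changes were less alike. They were 4.88 for Fgf21 and 6.38 for Fgf16, against 7.73 for 1700012B09Rik, 3.86 for Hmox1, 3.81 for Dusp10 and 4.35 for Gdf15. Shared regulation was not tested.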

How the data were processed

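RNA was depleted of ribosomal RNA and sequenced on an Ion Proton instrument, per the labels' protocols. The deposited values are whole-number read counts per gene, which the authors did not normalize; HTSeq 0.9.1, SAMtools and the build mm10 are named in the submitters' processing notes, while aligner, annotation and strand setting are not given in the sources used here. Of the table's versioned Ensembl identifiers, 98.0% matched a GENCODE M21 symbol, lengths and positions (GRCm38).

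Counts were tested with edgeR 4.0.16 in R 4.3.3: filterByExpr (minimum count 10, total 15), TMM factors, quasi-likelihood test with treatment as the only term, and Benjamini-Hochberg adjustment over 14000 genes at 0.05. Standard errors came from the fitted weights. The procedure was also run on counts simulated with the mean levels and dispersions of these libraries under the same count model. Such a run cannot show how far the real libraries depart from that model. Library pairs within a group differed by 11.0 to 19.2 in chi-square per degree of freedom (genes with at least 20 reads), so none agreed within sampling noise.

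The members and gene lists were chosen with earlier results of these data known. Named pathway genes were the up to 3 passing genes per list and direction with the smallest p-value and the tested family genes. The lists' other genes are counted, and a few are also given with values outside that rule. Alternatives were RLE, upper-quartile and total-count scaling, 2 other filters, thinning to the smallest library, the replicate block (also with thinning), DESeq2 1.42.0, a threshold of 0.01, and leaving out each library. PCR duplicates are not marked, so intervals and floors cover counting error only.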

Additional observations from a re-analysis of the deposited data

How the results depend on the processing

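All counts of passing genes (8 genes and pathway genes, in total and higher) stayed within 1.5 times the reported values in all 16 alternatives each, with 35 to 44 pathway genes and 3 to 4 of the 8 genes passing. The number of the 8 genes called lower, reported as 0, was 1 with upper-quartile factors (Fgf18) and 1 with thinning and the replicate block together (Fgf10), and 0 to 1 when 1 library was left out. Fgf21, Fgf16 and Fgfr1 passed as higher in all 16, Fgf7 in 4, and all 8 log2 fold changes kept their sign. Since this contrast chose the genes, these calls describe the fits and are no separate support. No pairing by replicate number was visible in the levels: equally numbered libraries had deviation correlations of 0.04, 0.004 and -0.006. These values cannot tell whether equally numbered libraries shared a source. With the replicate block alone the counts of passing genes were 43 pathway genes and 3 of the 8, the lost one being Fgf7.

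Of 31 named pathway genes, 26 kept direction and side of the threshold in every alternative run for them, 15 each except Fgf5, which had 14 because it was not tested with at least 1 CPM in 3 libraries. Fgf13, reported at -0.052, was 0.01 with total-count scaling, which moved the median of all genes to 0.065; Fgf9 ran from -0.32 to 0.15, Fgf13 from -0.17 to 0.063 and Fgfr3 from -0.41 to 0.15 when 1 library was left out. Gpc2 missed the threshold with thinning and the block (adjusted p = 0.0505), and Il17rd did so in 4 alternatives. Of all genes called, the share with higher levels after erastin was 50.2% with TMM, 44.0% with upper-quartile (median of all genes -0.055) and 57.1% with total-count scaling. Per kilobase of summed exons instead of the longest transcript, Fgfr1 was at 33.6 and 55.1 CPM per kb and Fgfr2 at 6.22 and 6.83 in DMSO and erastin. For these moves the cause was not tested. Depth limits Fgf16 and Fgf21 in DMSO, where 0 to 4 reads set the ratio.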
